A study of Homo sapiens with 8 samples.

Results

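NF-κB is controlled by a small circuit of genes, and 10 of its genes are described here across control and senescent fibroblasts, of 27945 genes in the table of counts. They are the 5 subunit genes NFKB1, NFKB2, REL, RELA and RELB and the 3 genes NFKBIA, NFKBIE and NFKBIZ of the IκB family. The others are the 2 feedback genes TNFAIP3 and BIRC3. The genes were taken by symbol, and all 10 passed the filter on low counts, among 12844 genes tested. Nascent RNA was measured by fastGRO-seq, a run-on method in which polymerases already engaged on genes in isolated nuclei extend labeled RNA that is then captured and sequenced, so the reads follow ongoing transcription. The cells were IMR90, a line of human lung embryonic fibroblasts, in which an inducible fusion of the estrogen receptor and oncogenic H-RAS (ER:RAS) brings on senescence when 4-hydroxytamoxifen (4-OHT) is added. The methods for ER:RAS cells give 4-OHT at 100 nM and harvest on day 6, without naming these libraries. There were 4 groups of 2 libraries. Control cells have genotype WT and treatment control in the labels, with no shRNA named. The other groups have treatment senescent and genotype shcontrol, shMETTL3 or shMETTL14, and are called shControl, shMETTL3 and shMETTL14 cells below. The m6A mark is placed on RNA by a complex built around METTL3 and METTL14. Senescence and the presence of an shRNA cannot be told apart in the comparison of shControl with control cells.

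In resting cells NF-κB dimers are held in the cytoplasm by IκB proteins, and signals from cytokine receptors activate the IκB kinases, which mark IκB for degradation and free the dimers to enter the nucleus. RELA, RELB and REL carry transactivation domains, while NFKB1 and NFKB2 encode precursors that are processed to the DNA-binding partners p50 and p52. Among the genes that NF-κB switches on are its own inhibitors, so that the response limits itself, and in senescent fibroblasts NF-κB is known as a driver of the secreted cytokines and chemokines of the senescence-associated secretory phenotype.

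Counts on genes outside 21 ribosomal RNA genes, which took 86.2% to 92.5% of each total, were 1864005 and 1903261 in control, 1513930 and 1577177 in shControl, 1822284 and 2048475 in shMETTL3 and 1649936 and 1581261 in shMETTL14 libraries. Library totals ranged from 14897360 to 20306299. Levels below are normalized counts, the number of reads over the whole gene body, introns included, scaled to the mean effective library size by the TMM method. They compare a gene between libraries, and levels of different genes are compared only per kilobase of gene. Fold changes are on the log2 scale with their standard error (SE), come from 1 edgeR fit to all 8 libraries, and set each gene against the rest of its library. A gene was called at an adjusted p below 0.05. With 2 libraries in each group, the p-values measure the spread between libraries, estimated for each gene over all 4 groups and not from the 2 groups compared. The shMETTL3 libraries differed most, with a variance between replicates of 5.24 times the sampling noise. It was 1.67 in control, 1.48 in shControl and 2.52 in shMETTL14 cells. The spread of the shMETTL3 libraries thus enters the p-values of comparisons without them too.

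The promoters are shown as background, because genes of this circuit are among the known targets of NF-κB. A share of matches above that of the whole table was therefore likely in advance, and NF-κB activity was not measured. RefSeq promoters on GRCh38.p14 were found for 8 of the 10 genes, the others being RELB and NFKBIE, and the 250 bases before each start were searched on both strands for the kappaB consensus of 10 bases. At least 1 match lay in 9 of 13 windows and in 7 of the 8 genes, the gene without a match being RELA, against 1828 of 35116 windows (5.21%) and 1715 of 27305 genes (6.28%) over the whole table. Capitals mark the match, with 10 bases on either side, each written 5′ to 3′ on the strand of the gene. The NFKB1 match lies at chr4:102501300-102501329 on the plus strand, the NFKB2 match nearest to a start at chr10:102395674-102395703 on the plus strand, a pair of overlapping REL matches at chr2:60881517-60881547 on the plus strand, the NFKBIA match at chr14:35404811-35404840 on the minus strand and a NFKBIZ match at chr3:101827757-101827786 on the plus strand. The matches of BIRC3 lie at chr11:102317275-102317304 and chr11:102317339-102317368 and a pair of TNFAIP3 matches at chr6:137867182-137867223, all on the plus strand. A match is a stretch of letters and was not tested for binding.
NFKB1: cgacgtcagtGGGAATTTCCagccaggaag
NFKB2: tggtattttcGGGACTTTCCtaagctgctc
REL: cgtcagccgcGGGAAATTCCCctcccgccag
NFKBIA: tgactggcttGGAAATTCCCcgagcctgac
NFKBIZ: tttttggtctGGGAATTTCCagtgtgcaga
TNFAIP3: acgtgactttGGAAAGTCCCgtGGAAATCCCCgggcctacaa
BIRC3, distal: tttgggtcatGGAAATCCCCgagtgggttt
BIRC3, proximal: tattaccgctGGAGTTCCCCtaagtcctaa

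The genes named in the labels were looked at first. An shRNA acts on mRNA after transcription, while these reads follow ongoing transcription, so they do not measure how far a knockdown went. The paper points to a western blot for both knockdowns. METTL3 had 91.0 and 52.3 normalized counts in shControl and 16.4 and 18.04 in shMETTL3 cells, and it fell by 2.04 on the log2 scale (SE 0.31, edgeR adjusted p = 1.79e-05). METTL14 had 28.4 and 31.2 normalized counts in shControl and 17.99 and 14.7 in shMETTL14 cells. Both shMETTL14 libraries lay below both shControl libraries for METTL14, as for 32.1% of all genes tested, but the log2 fold change of -0.86 (SE 0.34) did not pass the threshold (edgeR adjusted p = 0.0763). Against control cells, with 53.1 and 47.9 normalized counts, METTL14 fell by 1.62 in shMETTL14 cells (edgeR adjusted p = 0.000119), and against shMETTL3 cells, with 42.1 and 45.6, it fell by 1.41 (edgeR adjusted p = 0.00101). METTL14 was also lower in shControl than in control cells (-0.76, edgeR adjusted p = 0.0472), so in the value against control cells that difference and the knockdown cannot be told apart. The call in shControl cells was lost by DESeq2, with no filter on low counts, with the replicate block, without ribosomal RNA genes and without any 1 of the control (-0.68 and -0.83), shControl (-0.68 and -0.82) or shMETTL14 (-0.72 and -0.75) libraries.

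Markers of the cell type were summed as raw counts. The 10 fibroblast markers summed to 39156 and 37124 in control, 17281 and 19946 in shControl, 18368 and 16520 in shMETTL3 and 10388 and 11394 in shMETTL14 libraries, with COL6A3 the most abundant. In the edgeR test 7 of them were lower and 1 higher in senescence, 3 were lower in METTL3 knockdown and 8 were lower in METTL14 knockdown (with library size alone 4 were higher and 1 lower in METTL3 knockdown, and without any 1 of the control and shControl libraries 0 were higher in senescence), so fibroblast markers moved with the groups, and their part in the results below was not tested. The cells were of a fibroblast line, and bulk libraries cannot tell fewer cells with this RNA from less of it in each cell. The 8 leukocyte markers summed to 24 and 24 counts in control, 69 and 54 in shControl, 52 and 40 in shMETTL3 and 54 and 49 in shMETTL14 libraries. Of their 366 counts 297 lay on CD68, which fibroblasts also express, and CD3E was at 0 in all 8 libraries. CD68 was higher in senescence (2.05) and lower in METTL3 knockdown (-0.84), the latter not by DESeq2, with library size alone (-0.23), in a fit of the 2 groups alone (-0.86) or without shControl replicate 1 (-0.58), shMETTL3 replicate 2 (-0.50), shMETTL14 replicate 1 (-0.84) or shMETTL14 replicate 2 (-0.85). The 7 epithelial markers summed to 54 and 59, 46 and 26, 23 and 23, and 78 and 58 counts in the same order, with KRT18 the most abundant and NKX2-1 at 0. The 5 endothelial markers summed to 115 and 133, 43 and 52, 55 and 75, and 16 and 29 counts, of which TEK took 469 of 518. TEK was lower in senescence (-1.04), a call lost without shControl replicate 1 (-0.89), and in METTL14 knockdown (-1.28), a call lost without shControl replicate 2 (-1.13) or shMETTL14 replicate 1 (-0.85). Among 8 markers of the senescent state, CDKN1A, CDKN2B and HRAS rose and LMNB1 and MKI67 fell in shControl against control cells in the edgeR test. The HRAS value moved from 0.81 to 0.31 when only library size was scaled, and its call was then lost. In METTL3 knockdown CDKN2B was higher (0.94) and HRAS (-0.70, or -0.094 and not called with library size alone), LMNB1 and MKI67 were lower. In METTL14 knockdown CDKN1A was higher (1.01) and 4 markers, LMNB1, MKI67, CCNA2 and HMGB2, were lower, against 1 by DESeq2. The count of 4 became 3 and 1 without shControl replicates 1 and 2 in turn, and 2 without either shMETTL14 library. These markers moved with the groups too, and their part in the results below was not tested.

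In METTL14 knockdown, all 10 genes were higher in shMETTL14 than in shControl cells in the edgeR test, where 9.15% of all genes tested were called higher, and 0 were lower, where 12% were called lower (0 at an unadjusted p below 0.05 and 0 by DESeq2). Both shMETTL14 libraries lay above both shControl libraries for each of the 10 genes, as they did for 32.2% of all genes tested. The median log2 fold change was 1.37 over the 10 genes and 0.00 over all genes. DESeq2 called 5 of them, NFKB1, RELB, NFKBIA, TNFAIP3 and BIRC3. The count was also 5 without shMETTL14 replicate 1, 6 without shControl replicate 1 and 7 without shControl replicate 2.

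In METTL3 knockdown, 1 gene, NFKB1, was higher in shMETTL3 than in shControl cells in the edgeR test, where 12.3% of all genes were called higher, and 1 gene, BIRC3, was lower, where 11.2% were called lower. The median log2 fold change was -0.22, against -0.03 over all genes. The count of genes called lower was 0 by DESeq2 and also 0 when shControl replicate 1, shMETTL14 replicate 1 or shMETTL14 replicate 2 was left out. Without shMETTL3 replicate 1 it was 1, and the gene was then NFKBIA.

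In senescence, 6 of the 10 genes were higher in shControl than in control cells in the edgeR test, where 13.3% of all genes were called higher, and 0 were lower, where 13.3% were called lower (0 at an unadjusted p below 0.05 and 0 by DESeq2). They were the subunits NFKB1 and NFKB2, the IκB family genes NFKBIA and NFKBIZ and both feedback genes. The median log2 fold change was 0.99, against -0.03 over all genes. With other settings the count was 3 with library size alone, 5 by DESeq2 and 8 in a fit of the 2 groups alone. It was 7 with no filter on low counts, with the replicate block and without ribosomal RNA genes. The count was 4 without control replicate 2 and 4 without shControl replicate 2, and NFKB2 and NFKBIA were lost in both.

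The remaining comparisons share libraries with these and are given beside them. Against control cells, 5 genes were higher in shMETTL3 cells in the edgeR test, where 20.1% of all genes were called higher, and 1, RELA, was lower, where 20.1% were called lower, with a median of 0.86 over the 10 genes and -0.05 over all genes. DESeq2 called 3 of the 5 higher. The lower count was 0 by DESeq2 and 0 with library size alone or the 2 groups alone, 0 without control replicate 1 and 0 without shMETTL3 replicate 2. Against control cells all 10 genes were higher in shMETTL14 cells, where 19.7% of all genes were called higher, and 0 were lower, where 20.5% were called lower (edgeR, with 0 at an unadjusted p below 0.05 and 0 by DESeq2), with a median of 2.35. The difference between the knockdowns was tested directly, and all 10 genes were higher in shMETTL14 than in shMETTL3 cells in the edgeR test, where 16.5% of all genes were called higher, and 0 were lower, where 18.7% were called lower (0 at an unadjusted p below 0.05 and 0 by DESeq2). DESeq2 also called all 10 higher. In the same comparison 6 of 10 fibroblast markers were lower and 1 higher, both epithelial markers tested, KRT8 (1.38) and KRT18 (1.63), were higher and the endothelial marker TEK was lower (-1.52). The KRT8 call was lost by DESeq2 and without shMETTL14 replicate 1 (1.34) or shMETTL14 replicate 2 (1.41), and the higher fibroblast marker was called neither with library size alone, with no filter, with the 2 groups alone or without ribosomal RNA genes nor without any 1 of the control and shControl libraries, shMETTL3 replicate 2 or shMETTL14 replicate 1. Of the senescence markers CDKN1A (1.29) and HRAS (0.94) were higher and CDKN2B lower (-0.82), and without shMETTL3 replicate 1 LMNB1 was called higher as well. The part of these markers in the difference was not tested. The median over the 10 genes was 1.41, against 0.01 over all genes.

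The scaling of the libraries moved all genes together. With TMM, 1711 genes were higher and 1702 lower in senescence, and with library size alone 752 were higher and 5015 lower, with an all-gene median of -0.53. In METTL3 knockdown 1574 were higher and 1434 lower with TMM, and 5287 and 353 with library size alone (median 0.58). In METTL14 knockdown the same counts were 1175 and 1545 with TMM and 3163 and 709 with library size alone (median 0.35). They were 2531 and 2636 against 1826 and 3078 (median -0.14) for shMETTL14 against control cells, and 2118 and 2399 against 1177 and 3486 (median -0.25) for shMETTL14 against shMETTL3 cells. With library size alone, 10 of the NF-κB genes were higher in METTL14 knockdown, where that scaling raises all genes and so tests little, while 3 were higher and 2 lower in senescence and 3 higher and 0 lower in METTL3 knockdown.

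**Figure D1:**
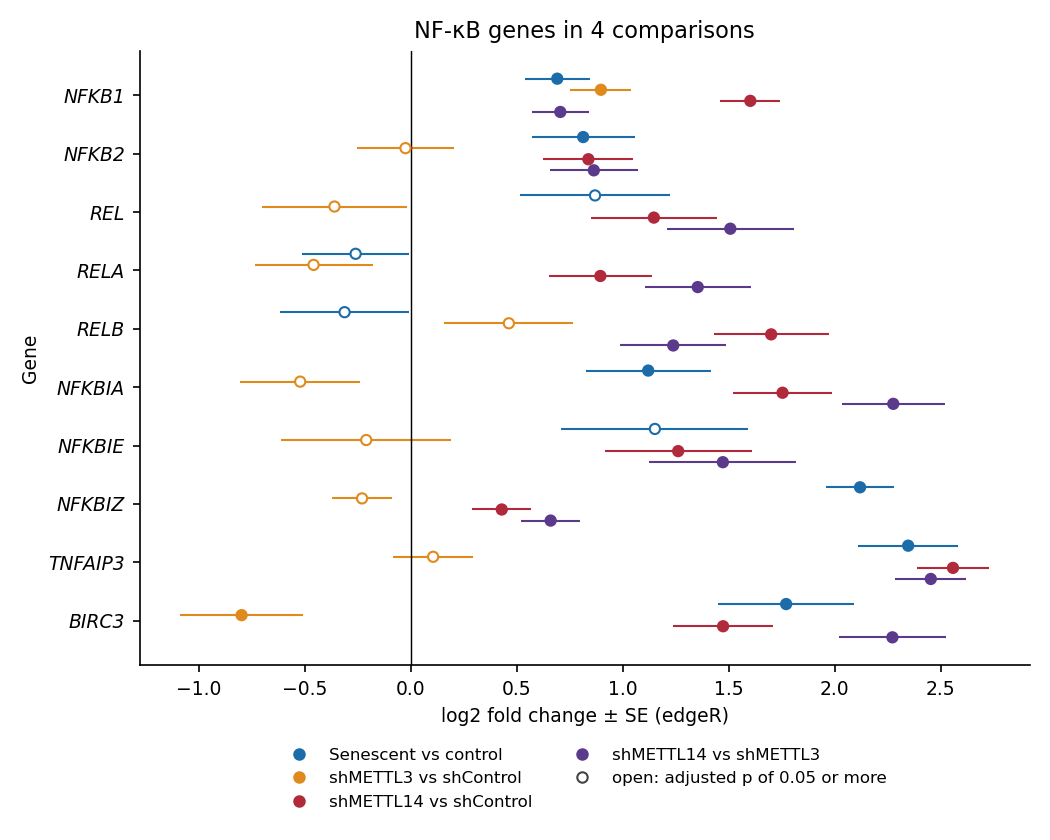
Log2 fold change of the 10 NF-κB genes (horizontal axis) with the SE of the fit as bars, in 4 comparisons by color, with filled markers where the edgeR adjusted p was below 0.05 and open markers where it was not. In METTL14 knockdown all 10 values lie above 0, from 0.43 for NFKBIZ to 2.56 for TNFAIP3, while in METTL3 knockdown they run from -0.80 for BIRC3 to 0.90 for NFKB1.

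NFKB1, the gene of the p50 precursor p105, was higher in every senescent group than in control cells and highest in shMETTL14 cells. It spans chr4:103422486-103538459 on the plus strand of hg19 and had 152 and 147 normalized counts in control, 264 and 220.4 in shControl, 419.6 and 480.4 in shMETTL3 and 763 and 706 in shMETTL14 cells. The groups did not overlap, and both libraries of each knockdown lay above both shControl libraries. Over all genes tested the same held for 27.8% in METTL3 knockdown and 32.2% in METTL14 knockdown. NFKB1 was called in all 6 comparisons, with a log2 fold change of 0.69 ± 0.15 in senescence (edgeR adjusted p = 0.00119), 0.90 ± 0.14 in METTL3 knockdown (4.12e-05) and 1.60 ± 0.14 in METTL14 knockdown (4.26e-09). The values in the knockdowns differed by 0.71 ± 0.13 (edgeR adjusted p = 0.000176). Its call in senescence was lost without shControl replicate 1, with a log2 fold change of 0.57, and with library size alone, with 0.19.

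NFKB2, the gene of the p52 precursor p100, spans chr10:104153867-104162286 on the plus strand. It had 41.6 and 34.0 normalized counts in control, 62.7 and 70.1 in shControl, 76.9 and 54.1 in shMETTL3 and 126 and 112 in shMETTL14 cells. The shMETTL14 libraries were the highest and the control libraries the lowest, and shMETTL3 and shControl libraries overlapped. NFKB2 rose by a log2 fold change of 0.81 ± 0.24 in senescence (edgeR adjusted p = 0.0135) and 0.84 ± 0.21 in METTL14 knockdown (0.00536), and its value in METTL3 knockdown was -0.03 (0.952). Against control cells it was higher in shMETTL3 cells (0.79, edgeR adjusted p = 0.00977), a call lost by DESeq2 and without control replicate 2 (0.64) or shMETTL3 replicate 1 (0.51). The senescence call was lost by DESeq2 and without control replicate 2 (0.68) or shControl replicate 2 (0.74), and with library size alone (0.32). The call in METTL14 knockdown was lost by DESeq2 and without shControl replicate 1 (0.76) or shMETTL14 replicate 1 (0.73). The difference of 0.86 between the knockdowns (edgeR adjusted p = 0.00198) was 0.75 without shMETTL14 replicate 1, with an adjusted p of 0.0501 by edgeR.

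REL, the subunit c-Rel best known from lymphocytes, spans chr2:61108630-61155291 on the plus strand and had low counts, with 13.3 and 19.2 normalized counts in control, 24.8 and 34.5 in shControl, 20.5 and 25.6 in shMETTL3 and 73.0 and 59.0 in shMETTL14 cells. Its shMETTL14 libraries stood apart from the other 6, and shMETTL3 and shControl libraries overlapped. On the log2 scale REL changed by 1.15 ± 0.30 in METTL14 knockdown (edgeR adjusted p = 0.00608), and its values of 0.87 ± 0.35 in senescence (0.0717) and -0.36 in METTL3 knockdown (0.484) were not called. DESeq2 did not call REL in METTL14 knockdown, nor did edgeR without shControl replicate 1 (0.93) or shMETTL14 replicate 1 (0.96). In senescence it was called in a fit of the 2 groups alone (0.91), without shMETTL3 replicate 1 and without shMETTL3 replicate 2, with a log2 fold change of 0.88 in each case. The REL value in METTL3 knockdown ranged from -0.58 to -0.11 with 1 library left out.

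RELA encodes p65, the transactivating partner of p50 in the best-known NF-κB dimer, and spans chr11:65421067-65430443 on the minus strand. It had 68.2 and 55.7 normalized counts in control, 57.9 and 45.6 in shControl, 42.1 and 33.2 in shMETTL3 and 116 and 75.8 in shMETTL14 cells. Control and shControl libraries overlapped, the shMETTL3 libraries were the lowest of all 8, and the shMETTL14 libraries the highest. The log2 fold change was -0.26 ± 0.25 in senescence (edgeR adjusted p = 0.495), -0.46 ± 0.28 in METTL3 knockdown (0.248) and 0.89 ± 0.24 in METTL14 knockdown (0.00927). Against control cells RELA fell by 0.72 in shMETTL3 cells (edgeR adjusted p = 0.0287) and rose by 0.63 in shMETTL14 cells (0.0282), and the knockdowns differed by 1.35 ± 0.25 (0.000129). The call in METTL14 knockdown was lost by DESeq2 and without shControl replicate 2 (0.72) or shMETTL14 replicate 1 (0.53). Against control cells the fall in shMETTL3 cells was lost by DESeq2, with library size alone (-0.61), in a fit of the 2 groups alone (-0.70) and without control replicate 1 (-0.57) or shMETTL3 replicate 2 (-0.56), and the rise in shMETTL14 cells was lost by DESeq2 and with library size alone (0.50) and without control replicate 2 (0.50) or shMETTL14 replicate 1 (0.31). With library size alone RELA was called lower in senescence, with a log2 fold change of -0.76. With 1 library left out its values ranged from -0.43 to -0.083 in senescence and from -0.65 to -0.29 in METTL3 knockdown.

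RELB, the partner of p52 in the noncanonical pathway, spans chr19:45504707-45541456 on the plus strand. It had 35.4 and 28.7 normalized counts in control, 23.6 and 27.8 in shControl, 40.0 and 31.3 in shMETTL3 and 86.0 and 82.1 in shMETTL14 cells. Its shControl libraries were the lowest of the 8 and its shMETTL14 libraries the highest. The log2 fold change was 1.70 ± 0.27 in METTL14 knockdown (edgeR adjusted p = 3.80e-05), the highest among the subunits, against 0.46 ± 0.30 in METTL3 knockdown (0.293) and -0.31 ± 0.30 in senescence (0.494). The knockdowns differed by 1.24 ± 0.25 (edgeR adjusted p = 0.000347). With library size alone RELB was called lower in senescence (-0.81) and higher in METTL3 knockdown (1.07). With 1 library left out its values ranged from -0.45 to -0.15 in senescence and from 0.26 to 0.61 in METTL3 knockdown.

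Shares of the subunit genes in their summed transcription are given as a description. Per kilobase of gene, the 5 subunit genes summed to 14.8 and 12.4 normalized counts in control, 17.1 and 16.6 in shControl, 18.8 and 15.5 in shMETTL3 and 37.8 and 30.9 in shMETTL14 cells. RELA took 49.2% and 47.8% of this sum in control, 36.2% and 29.3% in shControl, 23.9% and 22.8% in shMETTL3 and 32.7% and 26.1% in shMETTL14 cells. It was thus the leading subunit gene in both control libraries and in no other library, and NFKB2 led in the other 6, with 33.5% and 32.4% in control, 43.6% and 50.2% in shControl, 48.7% and 41.4% in shMETTL3 and 39.6% and 42.9% in shMETTL14 cells. NFKB1 took 8.89% and 10.2% in control, 13.3% and 11.5% in shControl, 19.3% and 26.7% in shMETTL3 and 17.4% and 19.7% in shMETTL14 cells. Its share was highest in shMETTL3 replicate 2, and the shares of the knockdown libraries lay above those of shControl and control libraries. RELB stayed between 3.77% and 7.23% and REL between 1.93% and 4.46% in all 8 libraries. These shares were not tested, and the reads of a gene body do not tell how much protein is made. NFKB2 (8.42 kb) and RELA (9.38 kb) are also the shortest subunit genes, against 36.7 kb for RELB, 46.7 kb for REL and 116 kb for NFKB1. The part of gene length in the levels per kilobase was not tested.

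**Figure D2:**
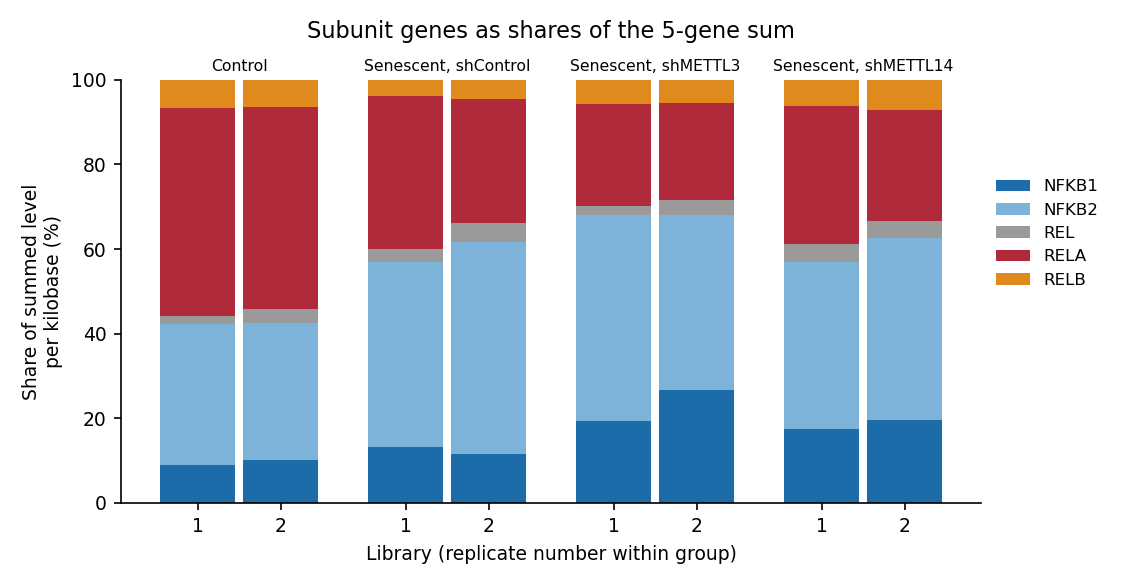
Share of each of the 5 subunit genes in their summed normalized counts per kilobase, in percent, as stacked bars for each of the 8 libraries. RELA takes 49.2% and 47.8% in the control libraries and 22.8% to 36.2% in the senescent libraries, and NFKB1 takes 17.4% to 26.7% in the knockdown libraries against 8.89% to 13.3% in the others.

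NFKBIA encodes IκBα, the inhibitor that binds the RELA dimer and is remade in each round of the response. It spans chr14:35870716-35873960 on the minus strand and had 38.1 and 28.7 normalized counts in control, 63.8 and 81.2 in shControl, 71.8 and 30.4 in shMETTL3 and 277 and 214 in shMETTL14 cells. The shMETTL14 libraries stood far above the other 6, and the shMETTL3 libraries differed widely from each other, replicate 2 lying among the control libraries. The log2 fold change was 1.12 ± 0.30 in senescence (edgeR adjusted p = 0.00534), -0.52 ± 0.28 in METTL3 knockdown (0.189) and 1.75 ± 0.24 in METTL14 knockdown (3.24e-06), and the knockdowns differed by 2.28 ± 0.24 (5.74e-08). The senescence call was lost without control replicate 2 (0.94) or shControl replicate 2 (0.95) and with library size alone (0.63). In METTL3 knockdown NFKBIA was called lower without shMETTL3 replicate 1, with a log2 fold change of -1.27. With 1 library left out its value there ranged from -1.27 to -0.038. Against control cells its value in shMETTL3 cells, 0.60, became -0.14 without shMETTL3 replicate 1, and it was called at 1.10 without shMETTL3 replicate 2 and at 0.70 with library size alone.

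NFKBIE encodes IκBε, another cytoplasmic inhibitor, and spans chr6:44225903-44233525 on the minus strand. It was thinly covered, with 10.6 and 7.84 normalized counts in control, 21.3 and 20.03 in shControl, 23.6 and 12.3 in shMETTL3 and 55.0 and 44.2 in shMETTL14 cells. Control libraries were the lowest and shMETTL14 libraries the highest, and shMETTL3 and shControl libraries overlapped. NFKBIE rose by 1.26 ± 0.35 on the log2 scale in METTL14 knockdown (edgeR adjusted p = 0.00984), and its values of 1.15 ± 0.44 in senescence (0.0544) and -0.21 ± 0.40 in METTL3 knockdown (0.753) were not called. The METTL14 call was lost by DESeq2 and without shControl replicate 1 (1.30), shControl replicate 2 (1.21) or shMETTL14 replicate 1 (1.07). NFKBIE was called in senescence without either shMETTL3 library (1.16 without replicate 1 and 1.17 without replicate 2), in a fit of the 2 groups alone (1.19), with replicate number as a block (1.16) and without a filter on low counts or without ribosomal RNA genes (1.18 each). Against control cells its value in shMETTL3 cells, 0.94 with an edgeR adjusted p of 0.0923, became 1.34 and was called without shMETTL3 replicate 2. With 1 library left out that value ranged from 0.41 to 1.34.

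NFKBIZ encodes IκBζ, a nuclear member of the IκB family that acts as a cofactor for a subset of NF-κB target genes. It spans chr3:101546834-101579869 on the plus strand and had 86.8 and 92.3 normalized counts in control, 413 and 367 in shControl, 307 and 357 in shMETTL3 and 568 and 481 in shMETTL14 cells. All 6 senescent libraries lay far above the control libraries. Both shMETTL3 libraries lay below both shControl libraries, as for 30.6% of all genes tested. NFKBIZ rose by a log2 fold change of 2.12 ± 0.16 in senescence (edgeR adjusted p = 5.37e-11) and by 0.43 ± 0.14 in METTL14 knockdown (0.0270), and its value in METTL3 knockdown was -0.23 ± 0.14 (0.255). Its rise in METTL14 knockdown was the smallest of the 10, and the call was lost by DESeq2 and without shControl replicate 1 (0.51), shControl replicate 2 (0.34) or shMETTL14 replicate 1 (0.28). The knockdowns differed by 0.66 ± 0.14 (edgeR adjusted p = 0.000526), or by 0.40 with library size alone, which was not called.

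TNFAIP3 encodes A20, a ubiquitin-editing enzyme that shuts down signaling upstream of the IκB kinases. It spans chr6:138188325-138204451 on the plus strand and had 23.0 and 34.8 normalized counts in control, 149 and 147 in shControl, 127 and 189.9 in shMETTL3 and 964 and 780.3 in shMETTL14 cells. Senescent libraries all lay above control libraries, and the shMETTL14 libraries lay above every other library by a wide margin, while shMETTL3 and shControl libraries overlapped. The log2 fold change was 2.35 ± 0.24 in senescence (edgeR adjusted p = 1.19e-08), 0.10 ± 0.19 in METTL3 knockdown (0.737) and 2.56 ± 0.17 in METTL14 knockdown (2.13e-11). From control to shMETTL14 cells TNFAIP3 rose by 4.91 ± 0.21, a 29.99-fold change (edgeR adjusted p = 2.61e-16). It was also the gene with the largest difference between the knockdowns among the 10, 2.45 ± 0.17 (edgeR adjusted p = 5.27e-11). The gene shares 1046 bases, 6.49% of its span, with LOC100130476 on the opposite strand, and the counts did not separate the strands. That neighbor had 124 counts in all 8 libraries against 2353 on TNFAIP3. Its raw counts were 6 and 4 in control, 1 and 5 in shControl, 9 and 19 in shMETTL3 and 44 and 36 in shMETTL14 libraries. It was thus highest in shMETTL14 cells too, and its part in the TNFAIP3 values was not tested. With library size alone TNFAIP3 was called higher in METTL3 knockdown (0.73), and without shMETTL3 replicate 2 its value there was -0.24.

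BIRC3 encodes cIAP2, a ubiquitin ligase of the TNF receptor complex that is itself an NF-κB target, and spans chr11:102188181-102210135 on the plus strand. It had 14.2 and 18.3 normalized counts in control, 68.6 and 43.4 in shControl, 24.6 and 38.9 in shMETTL3 and 176 and 134 in shMETTL14 cells. All senescent libraries lay above the control libraries, and the knockdown libraries lay on opposite sides of the shControl libraries. The shMETTL3 libraries lay below, as for 30.6% of all genes tested, and the shMETTL14 libraries above, as for 32.2%. The log2 fold change was 1.77 ± 0.32 in senescence (edgeR adjusted p = 0.000113), -0.80 ± 0.29 in METTL3 knockdown (0.0467) and 1.47 ± 0.24 in METTL14 knockdown (4.02e-05), while the knockdowns differed by 2.27 ± 0.25 (1.03e-07). The call in METTL3 knockdown lay close to the threshold and was lost by DESeq2, with library size alone (-0.17), with only the 2 groups compared (-0.83), with replicate number as a block (-0.79), without ribosomal RNA genes (-0.78), and without shControl replicate 1 (-0.45), shMETTL3 replicate 1 (-0.53), shMETTL14 replicate 1 (-0.80) or shMETTL14 replicate 2 (-0.81). Against control cells BIRC3 rose by 0.97 in shMETTL3 cells (edgeR adjusted p = 0.0264), a call lost by DESeq2, in a fit of the 2 groups alone (0.98) and without control replicate 1 (0.79) or shMETTL3 replicate 2 (0.59).

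**Figure D3:**
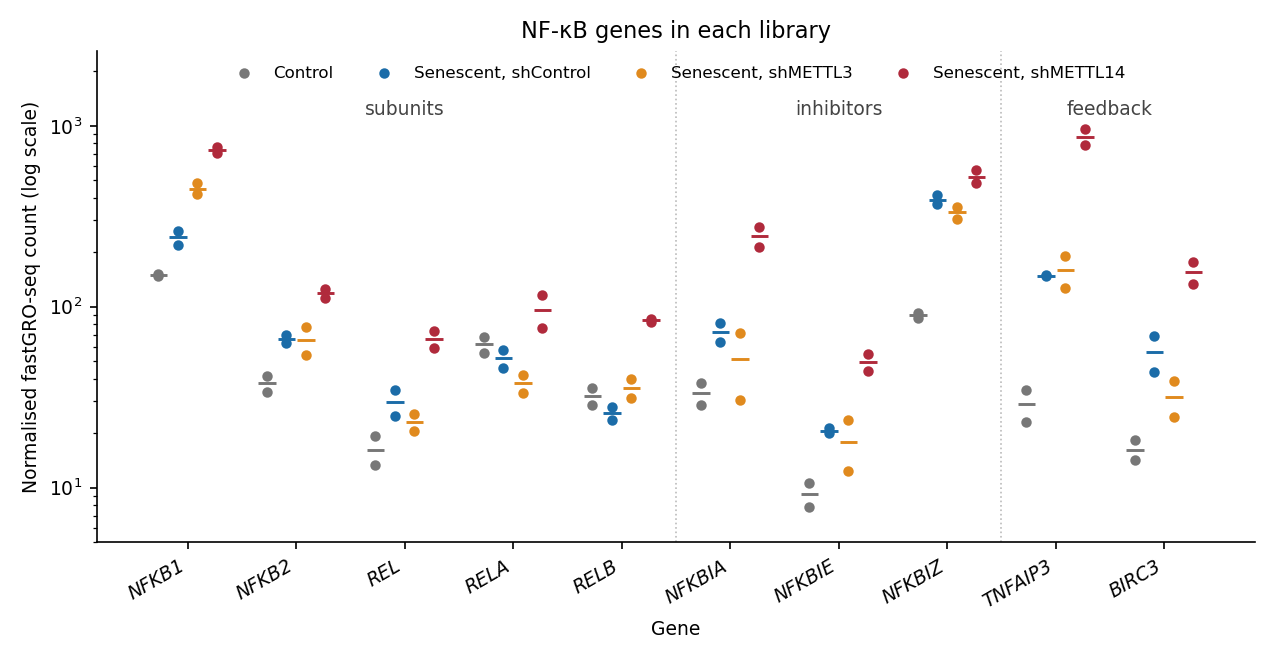
Normalized counts of the 10 NF-κB genes in each of the 8 libraries on a log axis. A point marks each library and a short line the mean of each group, with the 4 groups side by side in color. The heading inhibitors marks the IκB family genes, of which NFKBIZ encodes a nuclear cofactor. The shMETTL14 points lie above the points of every other group for all 10 genes and for 14.7% of all genes tested, for TNFAIP3 at 964 and 780.3 against 149 and 147 in shControl cells.

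Per kilobase of gene, NFKBIA had the highest mean level of the 10 in all 4 groups. It was 10.3 in control, 22.4 in shControl, 15.8 in shMETTL3 and 75.6 in shMETTL14 cells. NFKBIA is also the shortest of the 10 genes (3.24 kb), and the part of gene length in this order was not tested. In control cells RELA (6.61) and NFKB2 (4.49) came next, then NFKBIZ (2.71), TNFAIP3 (1.79), NFKB1 (1.29), NFKBIE (1.21), RELB (0.873), BIRC3 (0.739) and REL (0.348), and libraries of neighbors overlapped between NFKB1 and NFKBIE and between RELB and BIRC3. In shControl cells the order was NFKBIA, NFKBIZ (11.8), TNFAIP3 (9.17), NFKB2 (7.89), RELA (5.52), NFKBIE (2.71), BIRC3 (2.55), NFKB1 (2.09), RELB (0.700) and REL (0.636), so NFKBIZ and TNFAIP3 stood above the subunits in senescence. Neighbors overlapped there from NFKBIE to NFKB1 and between RELB and REL. In shMETTL3 cells NFKBIA, NFKBIZ (10.0), TNFAIP3 (9.83) and NFKB2 (7.78) led, each overlapping the next, followed by RELA (4.02) and NFKB1 (3.88), which overlapped, NFKBIE (2.36) and BIRC3 (1.45), which overlapped, RELB (0.971) and REL (0.495). In shMETTL14 cells TNFAIP3 (54.1) was next to NFKBIA, far above NFKBIZ (15.9) and NFKB2 (14.1), which overlapped, and RELA (10.2), BIRC3 (7.05), NFKBIE (6.51), NFKB1 (6.33), RELB (2.29) and REL (1.41) followed, with overlaps from BIRC3 to NFKB1.

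The genes whose levels ran most like a member over the 8 libraries were found among 3883 genes of adequate coverage (mean raw count 100 or more), by Pearson's r of log2 values. The libraries form 4 groups, so r mainly follows the group means and is given as a description. For NFKB1 they were PDE7B (r = 0.996), LOC644135 (0.987) and ETS1 (0.985), for NFKBIZ LRFN5 (0.999), CEMIP2 (0.996) and TFPI2 (0.995), and for TNFAIP3 MORC3 (0.989), CHMP4B (0.986) and GARS (0.974).

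The rest of the pathway was described with lists of 82 further genes, of which 69 were tested. In senescence 24 were higher and 7 lower, in METTL3 knockdown 6 and 24, in METTL14 knockdown 11 and 13, and 26 were higher and 7 lower in shMETTL14 than in shMETTL3 cells, all by edgeR. The shares among all genes are those given with the counts above. With library size alone 20 were higher and 17 lower in senescence, 24 higher and 12 lower in METTL3 knockdown, 30 higher and 8 lower in METTL14 knockdown and 22 higher and 12 lower between the knockdowns. DESeq2 called 3 lower in senescence, 3 higher in METTL3 knockdown and 3 lower between the knockdowns. The lower count in senescence was 4 without control replicate 2, 3 without shControl replicate 1 and 4 without shControl replicate 2. The higher count in METTL3 knockdown was 3 without shControl replicate 1, 2 without shControl replicate 2, 9 without shMETTL3 replicate 1 and 4 without shMETTL3 replicate 2, and that in METTL14 knockdown was 17 without either shMETTL3 library. Between the knockdowns the lower count was 2 without shMETTL14 replicate 1. The median log2 fold change over the 69 genes was 0.26 in senescence, -0.26 in METTL3 knockdown, 0.19 in METTL14 knockdown and 0.40 between the knockdowns.

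The ligand genes that were tested rose in senescence and were lower in both knockdowns. Of 5 ligand genes 2 were tested, IL1A and IL1B, which encode the interleukin-1 cytokines, with 2 higher in senescence and 2 lower in each knockdown. IL1B had 2 and 3 raw counts in control and 2161 and 2189 in shControl cells, a ratio of 1136 with a counting interval of 486 to 3500. It fell by 3.41 in METTL3 knockdown (edgeR adjusted p = 1.89e-14) and by 2.58 in METTL14 knockdown (1.57e-12). IL1A rose by 6.27 in senescence, fell by 1.69 in METTL3 knockdown (edgeR adjusted p = 8.34e-08) and fell by 0.63 in METTL14 knockdown (0.00630). The IL1A call in METTL14 knockdown was lost by DESeq2, with library size alone (-0.28) and without shControl replicate 1 (-0.59) or shMETTL14 replicate 1 (-0.65). The knockdowns differed by 1.06 for IL1A and 0.83 for IL1B, both called higher in shMETTL14 cells.

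NF-κB target genes were called in both directions. Of 29 listed targets 26 were tested, 14 were higher and 3 lower in senescence with a median of 1.67, 3 were higher and 17 lower in METTL3 knockdown with a median of -1.44, and 7 were higher and 9 lower in METTL14 knockdown with a median of 0.19. By DESeq2 12 were lower in METTL3 knockdown, and with library size alone 9 were. In METTL14 knockdown 13 targets were higher and 6 lower with library size alone. The 3 lower in senescence became 2 without any 1 of the control or shControl libraries or shMETTL14 replicate 1, and the 3 higher in METTL3 knockdown became 1 without shControl replicate 2 and 2 without shControl replicate 1 or either shMETTL3 library. The chemokine gene CXCL3 had 0 and 3 counts in control and 284 and 254 in shControl cells, a ratio of 234 with a counting interval of 79.7 to 1139, and CCL20 had 0 and 1 against 104 and 99, a ratio of 265 with an interval of 47.0 to 10519.9. Without control replicate 1 the ratios were 118 (40.2 to 574) for CXCL3 and 134 (23.7 to 5304) for CCL20, and without control replicate 2, which held all their control counts, they were at least 116-fold and 43.8-fold higher against a floor of 3 counts in the control library left. Lower in senescence were the adhesion gene VCAM1 (-2.11, edgeR adjusted p = 6.84e-06), the chemokine gene CCL2 (-0.87, 0.0342) and the syndecan gene SDC4 (-0.71, 0.00103). The CCL2 call was lost by DESeq2 and without any 1 of the control (-0.73 and -0.99) or shControl (-0.77 and -0.96) libraries or shMETTL14 replicate 1 (-0.84). CSF2, the gene of the cytokine GM-CSF, had 0 and 0 counts in control and 73 and 78 in shControl cells, at least 32.9-fold higher against a floor of 3 counts in each control library. Intervals and floors cover counting error only.

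After METTL3 knockdown the largest falls among these targets were in CXCL3, with a log2 fold change of -4.42 (edgeR adjusted p = 7.01e-12), CXCL1, with -3.14 (2.04e-13), and CSF2, with -2.80 (1.10e-06). CXCL1 had 998 and 830.2 normalized counts in shControl, 122 and 86.4 in shMETTL3 and 131 and 107 in shMETTL14 cells. The knockdown libraries lay below both shControl libraries, as for 30.6% of all genes tested in METTL3 knockdown and 32.1% in METTL14 knockdown. BCL2L1, which encodes the survival protein BCL-XL, rose by 0.85 in METTL3 knockdown (edgeR adjusted p = 0.000122). In METTL14 knockdown the targets that rose most were CD83, an activation marker of dendritic cells, by 3.84 (edgeR adjusted p = 1.56e-08), TNFAIP2 by 1.89 (1.43e-07) and the surface proteoglycan gene SDC4 by 1.44 (8.20e-08). CD83 had 7.09 and 5.56 normalized counts in shControl, 12.3 and 16.1 in shMETTL3 and 93.0 and 91.6 in shMETTL14 cells. The targets that fell most were CSF2, with a log2 fold change of -3.57 (edgeR adjusted p = 1.11e-07), CXCL10, with -3.42 (0.000260), and the prostaglandin synthase gene PTGS2, with -3.07 (3.33e-14). PTGS2 had 1695 and 1636 normalized counts in shControl, 295 and 301 in shMETTL3 and 208 and 189.6 in shMETTL14 cells. Both knockdowns share the shControl libraries, so their values are set side by side and no relation between them was computed. Between the knockdowns 15 targets were higher and 2 lower in shMETTL14 cells, with a median of 1.26, TNFAIP2 (2.76), CCL20 (2.69) and CD83 (2.68) having the largest differences. The lower count was 3 without shMETTL3 replicate 2.

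**Figure D4:**
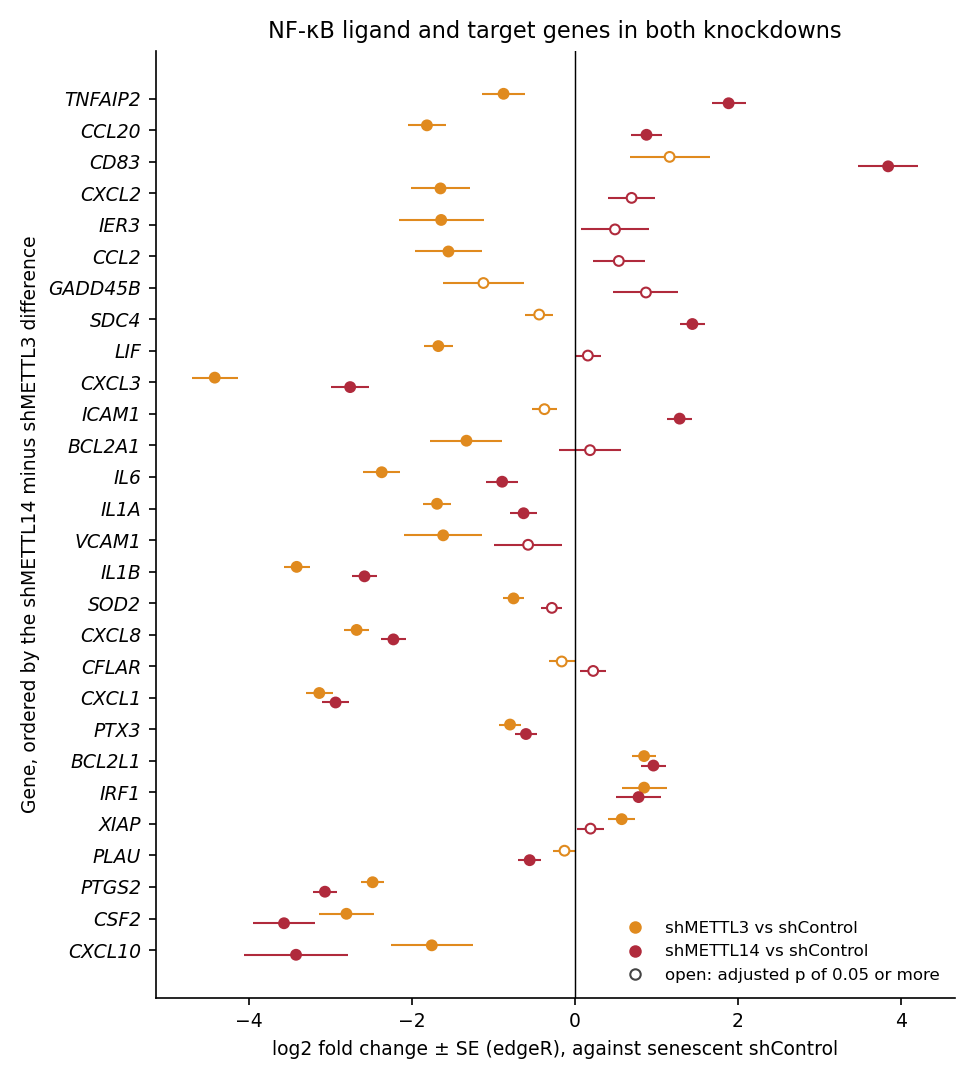
Log2 fold changes (horizontal axis) with the SE as bars for the 26 NF-κB target genes tested and the ligands IL1A and IL1B, ordered by the difference between the knockdowns, in METTL3 knockdown and METTL14 knockdown, each against shControl cells, with filled markers where the edgeR adjusted p was below 0.05. CD83 (3.84) and TNFAIP2 (1.89) rise in METTL14 knockdown, while CSF2 falls in both (-2.80 and -3.57).

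Genes that act between receptor and NF-κB were counted in the same way. Of 6 other inhibitor genes tested of 8, 1 was higher in senescence, TNIP1, a partner of A20, by 1.99 (edgeR adjusted p = 7.60e-11), and the count was 2 in each fit with 1 library left out except that without shControl replicate 2. For genes lower in senescence and in METTL3 knockdown the edgeR counts were 0 (0 at an unadjusted p below 0.05 and 0 by DESeq2), and in METTL14 knockdown 1, NFKBIB, was higher, by 1.14 (edgeR adjusted p = 0.0452), a call lost by DESeq2 and without control replicate 1 (1.14), shControl replicate 1 (1.03), shControl replicate 2 (1.26) or shMETTL14 replicate 1 (0.68). Without either shMETTL3 library 2 were higher and 1 lower in METTL14 knockdown, and with library size alone 4 were higher there, 2 were higher in METTL3 knockdown and 1 was lower in senescence. Of 18 adaptor genes, all tested, 5 were higher and 1 lower in senescence, 1 and 1 in METTL3 knockdown and 2 and 1 in METTL14 knockdown. The higher count in senescence was 3 without control replicate 1, the counts in METTL3 knockdown were 3 and 3 without shMETTL3 replicate 1 with 0 higher without shControl replicate 1, and the higher count in METTL14 knockdown was 3 without either shMETTL3 library. The adaptor counts with library size alone were 4 higher and 5 lower in senescence, 8 and 0 in METTL3 knockdown and 8 and 1 in METTL14 knockdown. The adaptor TRAF1, itself an NF-κB target, had 4.43 and 13.9 normalized counts in control, 29.6 and 27.8 in shControl, 34.9 and 40.8 in shMETTL3 and 198 and 193 in shMETTL14 cells. It rose by 2.76 in METTL14 knockdown (edgeR adjusted p = 4.26e-09) and by 1.62 in senescence (0.00225), where the call was lost without control replicate 1 (1.04) and the value was 2.67 without control replicate 2.

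Of 11 kinase genes, all tested, 1 was higher and 2 lower in senescence, 1 higher and 1 lower in METTL3 knockdown and 0 in either direction in METTL14 knockdown (edgeR, with 2 higher and 0 lower at an unadjusted p below 0.05 and 0 and 0 by DESeq2). DESeq2 called 0 of the kinase genes in senescence and 0 in METTL3 knockdown. The gene called higher in both was MAP3K7, which encodes the IκB kinase activator TAK1, with 0.49 in senescence and 0.46 in METTL3 knockdown, and with library size alone its senescence value was -0.0060. It was not called in senescence without any 1 control or shControl library (0.47 to 0.53), nor in METTL3 knockdown without shControl replicate 1 (0.44), shControl replicate 2 (0.46) or shMETTL3 replicate 2 (0.25). Lower in senescence were MAP3K14 (-1.58) and IKBKG (-1.27). IKBKG was also lower in METTL3 knockdown (-1.56), with values from -4.29 to -0.64 with 1 library left out. With 1 library left out the counts of kinase genes ranged from 0 to 2 in either direction in senescence and from 0 to 2 higher and 0 to 1 lower in METTL3 knockdown, and were 2 higher in METTL14 knockdown without either shMETTL3 library. They were, with library size alone, 0 higher and 4 lower in senescence, 7 higher and 0 lower in METTL3 knockdown and 3 higher and 0 lower in METTL14 knockdown. Of 6 receptor genes tested of 11, 1 was higher and 1 lower in senescence, 1 higher and 3 lower in METTL3 knockdown and 1 higher and 1 lower in METTL14 knockdown. Scaling by library size alone gave receptor counts of 0 and 3 in senescence, 2 and 1 in METTL3 knockdown and 2 and 0 in METTL14 knockdown. With 1 library left out these receptor counts ranged from 0 to 2 higher and 0 to 1 lower in senescence (0 and 0 without control replicate 1, control replicate 2 or shControl replicate 1), from 0 (without shControl replicate 2 or shMETTL3 replicate 2) to 2 higher and 2 (without shControl replicate 1) to 3 lower in METTL3 knockdown, and from 0 (without shControl replicate 2 or shMETTL14 replicate 1) to 2 higher and 0 (without shControl replicate 2) to 1 lower in METTL14 knockdown. TNFRSF1B, which encodes TNF receptor 2, fell by 2.05 in METTL3 knockdown (edgeR adjusted p = 0.000119) and was higher by 1.76 in shMETTL14 than in shMETTL3 cells (0.000446).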

How the data were processed

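The values deposited by the authors are raw counts from HOMER for 8 libraries, with reads aligned to hg19 and counted over whole gene bodies, without normalization and with replicates kept apart. Counts were normalized by TMM and tested with edgeR 4.0.16 in R 4.3.3, with filterByExpr at a minimum count of 10, 1 quasi-likelihood fit over 4 groups and Benjamini-Hochberg adjusted p-values over 12844 genes. On simulated data both edgeR and DESeq2 missed some of the changed genes, DESeq2 more of them, and a pass mark for recovery was dropped after DESeq2 fell short of it. Alternatives were DESeq2 1.42.0, library size alone, upper quartile, no filter, at least 10 counts in every library, the 2 groups compared alone, replicate number as a block, a table without ribosomal RNA genes, stricter calls (adjusted p under 0.01, or log2 fold change of 1 or more in size), and each library left out. Named beside the 10 genes are the knockdown targets, markers, some of the called genes with the strongest change in the pathway lists, the 3 genes most like each member with enough counts, and overlapping genes. The members and lists were chosen with earlier results of these data known. The file headers ask for reads on 1 strand, but the deposited counts did not separate the strands in 299 of 299 pairs of overlapping genes that were checked, so each count may hold reads of both strands. The Drosophila spike-in was not used, and global changes in transcription are therefore out of reach.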

Additional observations from a re-analysis of the deposited data

Results flagged for a closer look

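The response to METTL14 knockdown differed from the response to METTL3 knockdown for all 10 NF-κB genes, by the edgeR test of the difference itself between shMETTL14 and shMETTL3 cells. On the log2 scale the difference was 0.71 for NFKB1, 0.86 for NFKB2, 1.51 for REL, 1.35 for RELA and 1.24 for RELB among the subunits. It was 2.28 for NFKBIA, 1.47 for NFKBIE and 0.66 for NFKBIZ in the IκB family. Among the feedback genes it was 2.45 for TNFAIP3 and 2.27 for BIRC3. The smallest adjusted p by edgeR was 5.27e-11, for TNFAIP3, and the highest was 0.00198, for NFKB2. Without shMETTL14 replicate 1 the NFKB2 value was 0.75 with an adjusted p of 0.0501, and with library size alone the NFKBIZ value was 0.40 with 0.0758. The shMETTL3 libraries differed from each other more than those of any other group. METTL14 was not past the threshold in its own knockdown against shControl cells, in nascent reads that do not measure how far the knockdown went. Markers also moved between these groups, with 6 of 10 fibroblast markers lower and 1 higher, TEK lower and KRT8, KRT18 and the senescence markers CDKN1A (1.29) and HRAS (0.94) higher in shMETTL14 cells, where CDKN2B was lower (-0.82). The KRT8 call was lost by DESeq2 and without either shMETTL14 library (1.34 and 1.41). The part of any of these in the differences was not tested.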

How the results depend on the processing

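Of 60 values of the 10 genes in 6 comparisons, 51 kept their direction in every alternative in which they could be tested. Over 954 alternative values, 872 kept direction and side of the threshold, 53 lost a call, 17 gained one and 12 changed direction. Leaving out a library leaves a group with 1 library, which is then assumed to vary like the other groups. The causes of the changes below were not tested, beyond fewer libraries or a stricter threshold by construction.

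The count of genes higher in senescence was 6, and it was 3 with library size alone, 4 at a log2 fold change of 1 or more in size, and 4 to 8 with 1 library left out. Lower in senescence were 2 with library size alone. Higher in METTL3 knockdown were 3 with library size alone and 0 at a log2 fold change of at least 1. Lower in METTL3 knockdown were 0 by DESeq2, with library size alone, with the 2 groups alone, with the replicate block, without ribosomal RNA genes, at an adjusted p below 0.01 and at a log2 fold change of at least 1, and 0 to 1 with 1 library left out. Higher in METTL14 knockdown were 5 by DESeq2 and 5 to 10 with 1 library left out. For shMETTL3 against control cells, 3 were higher by DESeq2 and 3 at a log2 fold change of at least 1, and lower were 0 by DESeq2, with library size alone, with the 2 groups alone, at an adjusted p below 0.01 and at a log2 fold change of at least 1, and 0 to 1 with 1 library left out.

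Values that changed direction were not called in the fit reported, except MAP3K7 in senescence, which went from 0.49 to -0.0060 with library size alone. With library size alone the values in METTL3 knockdown became 0.33 for CDKN1A, 0.58 for NFKB2, 0.075 for NFKBIA, 0.39 for NFKBIE, 0.39 for NFKBIZ, 0.25 for REL and 0.15 for RELA, and METTL3 became -0.46 in senescence and 0.25 in METTL14 knockdown. With the upper quartile METTL3 became -0.013 in senescence. With 1 library left out, values that changed direction ranged from -0.40 (without shControl replicate 1) to 0.40 for METTL3 in senescence, -0.47 to 0.33 (without shControl replicate 1) for METTL3 in METTL14 knockdown, and -0.22 to 0.083 (without shMETTL14 replicate 2) for METTL3 in shMETTL14 against control cells. CDKN2B in METTL14 knockdown ranged from -0.16 (without shMETTL14 replicate 2) to 0.33. In METTL3 knockdown the ranges were -0.31 to 0.19 for NFKB2, -0.75 to 0.17 for NFKBIE and -0.24 to 0.34 for TNFAIP3, the direction changing without shMETTL3 replicate 2 and for NFKB2 also without shControl replicate 2. For shMETTL3 against control cells they were -0.040 to 0.23 for HRAS, -0.14 to 1.10 for NFKBIA and -0.036 to 0.31 for RELB, the direction changing without shMETTL3 replicate 1.

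Replicate numbers are not known to pair libraries, and the correlation of their deviations between groups lay from -0.04 to 0.10. Among the pathway lists, at least 10 counts in every library left genes such as IL1B untested, and 11 of the 82 genes were then higher in senescence. At low counts, as in NFKBIE and REL, the depth limits what can be told.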
